A study of Mus musculus with 12 samples.

Results

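CD8 T cells that carry receptors of natural killer (NK) cells were described in tumours of MC38, a transplantable colorectal cancer line of the mouse, in Kaede hosts. They were chosen cell by cell from raw UMI counts (unique molecular identifiers, 1 per captured RNA molecule). A member had a UMI of Cd8a or Cd8b1, the CD8 coreceptor genes, none of Cd4 or Foxp3, at least 1 each of Klre1 and Klrd1, which encode NK receptor chains, and none of Tcf7, the transcription factor of naive and stem-like T cells. The rule found 516 members among 2740 kept cells and 1566 CD8 cells. The remaining 269 of the 785 CD8 cells without Tcf7 are called the other Tcf7-negative cells.

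All mice carried the Kaede protein (genotype label Kaedehet), which is green until violet light turns it red. The tumour-draining lymph node was lit at 405 nm on day 14, so that a red T cell in the tumour had been in the lit node, while a green one had not or had been missed by the light. Tumours then received 12 Gy of radiation at once (RT) or none (NT), and some mice were given 10 µg of FTY720, a drug that blocks the exit of lymphocytes from lymph nodes, on day 15. The 6 conditions were NT and RT collected after 24 h (day 1) and NT, RT, FTY720 and RT+FTY720 collected after 72 h (day 3), each with 2 replicate pools of 4 tumours from 4 mice. CD4 and CD8 cells were enriched on magnetic beads and live cells with CD90.2 were sorted into red and green, so that shares of cell types also carry those steps.

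NK receptors of the lectin family lie side by side in the NK gene complex and pair with each other. CD94, the product of Klrd1, joins NKG2A or NKG2C, the products of Klrc1 and Klrc2, to bind a peptide-loaded nonclassical MHC molecule, with an inhibitory or an activating signal. NKG2D, the product of Klrk1, binds stress-induced ligands, and the Klre1 product pairs with chains of the Klri family. Activated CD8 T cells start to express several of these receptors after antigen contact, and they are common on tumour-infiltrating CD8 T cells.

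Each replicate took up a pair of 10x wells, one for both day 1 conditions and NT day 3 and another for RT, FTY720 and RT+FTY720 at day 3, so RT against NT at day 3, RT day 3 against RT day 1, and FTY720 against NT at day 3 cannot be told apart from the wells. The pools held 7 to 122 members and 237387 to 3452732 member UMIs. Colours follow the hashtag names of the deposited matrices, which in replicate 2 exchange red and green relative to the tag numbers of the sample labels. Members with the same TCR alpha and beta chains were found in 7 of 12 pairs of samples of the same condition, other replicate and other colour (26 clones), against 2 of 12 pairs of red and green of the same pool (2 clones), 1 of 12 pairs of the same colour in both replicates (1 clone) and 1 of 240 pairs between conditions (2 clones). The first kind of pair carried the same hashtag sequence, and 0 barcodes were shared between wells. Over all kept cells the same kinds of pair shared 64, 6, 4 and 3 clones, in that order. Whether the replicates share animals, or the colours of a pool come from different animals, was not tested. Tumour pools below are those of the labels, and p-values measure the spread between them. These p-values hold only if the pools are independent. Results are given also with pools formed by hashtag sequence where this changed them.

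The choosing genes are given first, as a description. Of the members, 514 had both Cd8a and Cd8b1. Just inside the limits stood 68 members with 1 UMI of Klre1 and 2 with 1 UMI of Klrd1, while 447 had 2 or more of both. Just outside stood 200 cells that lacked Klre1 alone, 3 that lacked Klrd1 alone, 66 that lacked both, and 193 that had both receptors and Tcf7, 42 of them with 1 UMI of Tcf7. The limit is therefore mostly one of Klre1: 74.3% of the other Tcf7-negative cells had Klrd1. Members had a median of 25345 UMIs against 17691 in the other Tcf7-negative cells, and thinned to 10000 UMIs a cell the rule kept 436 of the 500 members that were deep enough.

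The label was checked against markers of T cells and of other types. The 8 CD8 T cell markers beside Cd8a and Cd8b1 summed to 4392 to 5905 CPM (counts per 1000000 of a pool's member UMIs) in the 12 pools, and a TCR beta chain was read in 96.7% of members. The 14 NK cell markers, among them Nkg7, Eomes and Gzma, which CD8 T cells also express, summed to 2849 to 4141 CPM in members and 1747 to 4251 CPM in the other Tcf7-negative cells. Ncr1, the NKp46 receptor gene of NK cells, was seen in 1 member (0.194%), Klra8, a Ly49 receptor gene, in 0 of 516 members (a count of 0 allows up to 0.581%), and Tyrobp, the NK signalling adaptor, in 5.43% of members, or 1.40% after thinning, against 2.06% and 1.01% of Treg cells (Cd4 and Foxp3 positive, median 19721 UMIs). Fcer1g, another adaptor gene among the 14 NK cell markers, was seen more often, in 7 members together with Tyrobp and in 52 without it. Of 10 gamma-delta T cell markers (37.4 to 244 CPM summed), Trdv4 and Sox13 were at 0. The B cell markers Cd79a, Ms4a1 and Iglc2, the neutrophil genes S100a8 and S100a9 and the epithelial keratins Krt8 and Krt19 were at 0 as well. Other genes of those lists were present: the 12 myeloid markers summed to 129 to 313 CPM in members, the 6 B cell markers to 0 to 80.04 CPM and the 7 tumour cell markers to 0 to 34 CPM.

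Almost every member carried the lectin receptors Klrc1 and Klrk1, which the rule did not use but which belong to the same family as Klre1 and Klrd1. Klrc1 had a UMI in 98.4% of members (98.0% after thinning), in 62.1% of the other Tcf7-negative cells (60.4%) and in 8.03% of Treg cells (5.32%). Klrk1 stood at 98.8% (96.4%), 60.2% (59.9%) and 2.06% (1.27%), and 505 of the 516 members had both. Klrc2 was seen in 68.2% of members and 27.9% of the others, and after thinning in 40.8% and 21.7%. Klrg1, the receptor of terminal effector cells, was seen in 4.07% of members and 61.2% of Treg cells. Of 25 lectin receptor genes outside the rule, Klrc1, Klrk1, Klrc2 and the Ly49 genes included, members had a median of 4. The others had 2 and Treg cells 1, and after thinning the medians were 3, 2 and 1.

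Klrh1, a further gene of the complex, divided the members. It had a UMI in 104 of 516 members (20.2%, or 18.2% after thinning), in 2.97% of the other Tcf7-negative cells and in 0 of 436 Treg cells (up to 0.688% allowed). Those 104 members held 2942 Klrh1 UMIs, and up to 104 in a single cell. The Ly49 receptor genes (Klra family), which in mice bind classical MHC class I, were rare. Klra5 was seen in 9.50% of members and 0 of the 269 others (up to 1.12% allowed), Klra3 in 4.65% and Klra7 in 1.36%, and Klra17 in 0 of 516. In the 193 CD8 cells with both receptors and Tcf7, Klra6 was seen in 18.7% and Klra7 in 16.1%, against 0.581% and 1.36% of members, and Klra5 in 2.59%. Ly49 genes are near-identical copies, so reads can be split between them.

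Summed over cells of each pool, members were compared with the other Tcf7-negative cells of the same label pool (11 pools with at least 5 cells of both, sums of 6 to 122 cells). Members carried more of NK lectin receptor genes, perforin and the macrophage growth factor gene Csf1, and less of granzyme K, Cxcr3, Slamf6 and each of the 19 interferon-stimulated genes tested. Klre1 and Klrd1 chose these groups, and genes that vary with them from cell to cell were bound to differ. Among 6403 genes, 199 were higher (3.11%) and 243 lower (3.8%), 6.9% in all (edgeR quasi-likelihood test, Benjamini-Hochberg adjusted p below 0.05). The counts were 149 and 124 of 4096 genes with cells thinned to 10000 UMIs, 269 and 307 with DESeq2, and 140 and 112 of 7258 against the 66 cells that lacked both receptors. In that last setting Frmd4a, Ms4a4a, Rgs16, I730030J21Rik, Trbv29, Socs3, 1700025G04Rik, Lag3, Tnfrsf9, Eomes, Ly9, Foxo1, Cd38, Zfp683, Csf2, Tgfb1 and Cdkn1a, described below, did not pass. With sums per pool and colour 349 genes were called, and Itga4, Tnfsf8, Mx2, Lilrb4b, Zfp683, Csf2, Cd38, Tgfb1 and Cdkn1a did not pass. Of markers of other cell types, 2 of 5 CD4 and Treg genes tested were higher in members (Il2ra and Ikzf4, list median 0.66; summed 653 to 1437 CPM against 380.2 to 1303 CPM), as was 1 of 2 myeloid genes, Cst3 (summed 129 to 313 against 33.5 to 308 CPM). A TRB was read in 85.5% of the other Tcf7-negative cells. The part of these in the result was not tested.

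Of 14 other NK lectin receptor genes, 4 passed the filter on low counts and 4 were higher, with a median log2 fold change of 1.12 against 0.0014 over all genes. They belong to the same receptor family as the choosing genes Klre1 and Klrd1, so this is a description. Klrh1 stood at 62.7 to 331 CPM (median 234) in members and 0 to 130.4 CPM (median 1.58) in the others, a log2 fold change of 3.68 ± 0.57 (SE, edgeR adjusted p = 0.000504). The others had 0 in 5 pools and overlapped with the members only through NT day 3 replicate 1, at 130.4 CPM. Klrc1 stood at 854 to 1708 CPM (median 1114) against 212 to 1202 CPM (median 510.2) (1.24 ± 0.15, adjusted p = 5.47e-05, edgeR), and Klrk1 at 582 to 1129 CPM (median 697) against 113 to 972 CPM (median 373) (1.00 ± 0.18). Both were higher in 11 of 11 pools. Klrc2 was higher by 0.80 ± 0.21 and lost its call with pools by hashtag and when replicate 2 of NT day 1 or NT day 3 or replicate 1 of RT day 1 was left out. Of the 16 NK adaptors and immunoglobulin-type receptors, 11 were tested and 3 were lower: Slamf7 (−0.71 ± 0.18, not past the threshold without NT day 1 replicate 2), Ly9 (−0.73 ± 0.14) and the inhibitory receptor Lilrb4b (−0.87 ± 0.20). Cd244a, the receptor 2B4 that marks NK cells and exhausted T cells, was measured at 5.71 to 119.8 CPM (median 58) against 0 to 78.5 CPM (median 29.8) and did not pass (0.54 ± 0.29, adjusted p = 0.316, edgeR).

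The strongest gene by adjusted p among the higher ones was Styk1, which encodes a receptor-like kinase. It stood at 48.9 to 219.6 CPM (median 112) in members and 0 to 74.8 CPM (median 24.9) in the others and was higher in 11 of 11 pools (2.12 ± 0.23, adjusted p = 3.51e-05, edgeR). Rgs16, a regulator of G protein signalling, did not overlap between the groups, at 729 to 1318 CPM (median 893) against 47.1 to 630.3 CPM (median 352) (1.37 ± 0.25). Nrgn, a calmodulin-binding protein gene, was higher by 1.86 ± 0.35. The others among the 15 largest increases were the V gene Trbv26 (2.50 ± 0.45), Frmd4a (1.82 ± 0.30), Gm35113 (1.78 ± 0.32), Ms4a4a (1.67 ± 0.24), Myo10, a motor protein gene (1.65 ± 0.28), Csf1 (1.64 ± 0.25), Gm36723 (1.58 ± 0.22), Rrm2, the ribonucleotide reductase subunit (1.56 ± 0.37), Spry2 (1.40 ± 0.32), the adaptor gene Lat2 (at 46.1 to 109 CPM (median 76.8) against 0 to 64.7 CPM (median 26.8)) and I730030J21Rik (1.37 ± 0.26). Rrm2 did not pass when replicate 2 of NT day 1 or of RT day 1 was left out, Trbv26 did not pass with thinned cells, and Spry2 did not with pools by hashtag.

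Killing genes went in both directions. Of 11 cytotoxic granule genes tested, Prf1, which encodes the pore-forming protein perforin, was higher and Gzmk was lower. Prf1 stood at 212 to 1015 CPM (median 405) against 37.4 to 393 CPM (median 166) and was higher in 11 of 11 pools (1.32 ± 0.24, adjusted p = 0.00135, edgeR). Gzmk stood at 4.61 to 123 CPM (median 69.2) against 0 to 776 CPM (median 215) and was lower in 9 of 11 pools (−1.61 ± 0.34), a call that DESeq2 did not make. Of 13 checkpoint and exhaustion genes, Lag3 (1.19 ± 0.21), Tnfrsf9, the costimulatory receptor 4-1BB (0.78 ± 0.18), Tigit (0.70 ± 0.17) and Pdcd1, which encodes PD-1 (0.55 ± 0.12), were higher, and Cd38 (−0.61 ± 0.15), an NAD-consuming ectoenzyme, was lower (list median 0.40). Cd38 did not pass with thinned cells or without replicate 1 or 2 of NT day 1 or without RT day 1 replicate 2. Havcr2, which encodes the checkpoint receptor TIM-3, was measured at 0.54 ± 0.17 and did not pass (adjusted p = 0.0594, edgeR). Of 15 cytokine genes, Csf1, the macrophage growth factor gene, stood at 119.9 to 336 CPM (median 192) against 0 to 224 CPM (median 59.9) and was higher, as were Csf2, which encodes GM-CSF (1.15 ± 0.30), and Tgfb1 (0.45 ± 0.11), while the chemokine gene Cxcl10 was lower (−2.37 ± 0.45). Csf2 did not pass without replicate 2 of NT day 1 or either replicate of RT day 1, nor with DESeq2, thinned cells or pools by hashtag, and Tgfb1 did not with pools by hashtag.

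Some genes of memory and of tissue entry were lower in members and others were higher. Of 18 adhesion and trafficking genes tested, 2 were higher and 4 lower, with a list median of 0.065. Cxcr3, the receptor for interferon-induced chemokines, stood at 24.9 to 85.4 CPM (median 50.6) in members and 113 to 255 CPM (median 149) in the others, with no overlap (−1.64 ± 0.16, adjusted p = 2.19e-05, edgeR). Itga4, an integrin subunit that binds VCAM1, was lower in 11 of 11 pools (−1.79 ± 0.27). Cx3cr1, the fractalkine receptor of effector cells, was higher, at 45.2 to 189 CPM (median 151) against 7.85 to 124 CPM (median 46.6) (1.16 ± 0.24). Of 8 memory and stem-like genes, Lef1 (−1.57 ± 0.25), a partner factor of Tcf7, Slamf6 (−1.65 ± 0.23) and Foxo1 (−0.69 ± 0.13, not with thinned cells) were lower and Il7r, the interleukin-7 receptor, was higher (1.02 ± 0.24). The median of that list was 0.16, and 5 of its 8 tested genes had a positive estimate. Eomes, a T-box factor of memory and NK cells, was lower (−1.56 ± 0.30). Of the receptors for common cytokines, Il2rb (0.50 ± 0.09) and Il12rb2 (0.88 ± 0.15) were higher. Over the 19 genes of IL2 and IL15 signalling tested, 4 were higher and 3 lower, with a list median of 0.019. The residency factor Zfp683 (Hobit) was higher by 0.99 ± 0.25 and lost its call in 5 of 11 fits that left out a pool and with at least 10 cells per sum. Also among the 15 largest decreases were the V gene Trbv29 (−2.44 ± 0.47), Socs3, a suppressor of cytokine signalling (−1.69 ± 0.20), 1700025G04Rik (−1.66 ± 0.29), Tnfsf8 (−1.63 ± 0.32) and Aff3 (−1.57 ± 0.27).

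**Figure D1:**
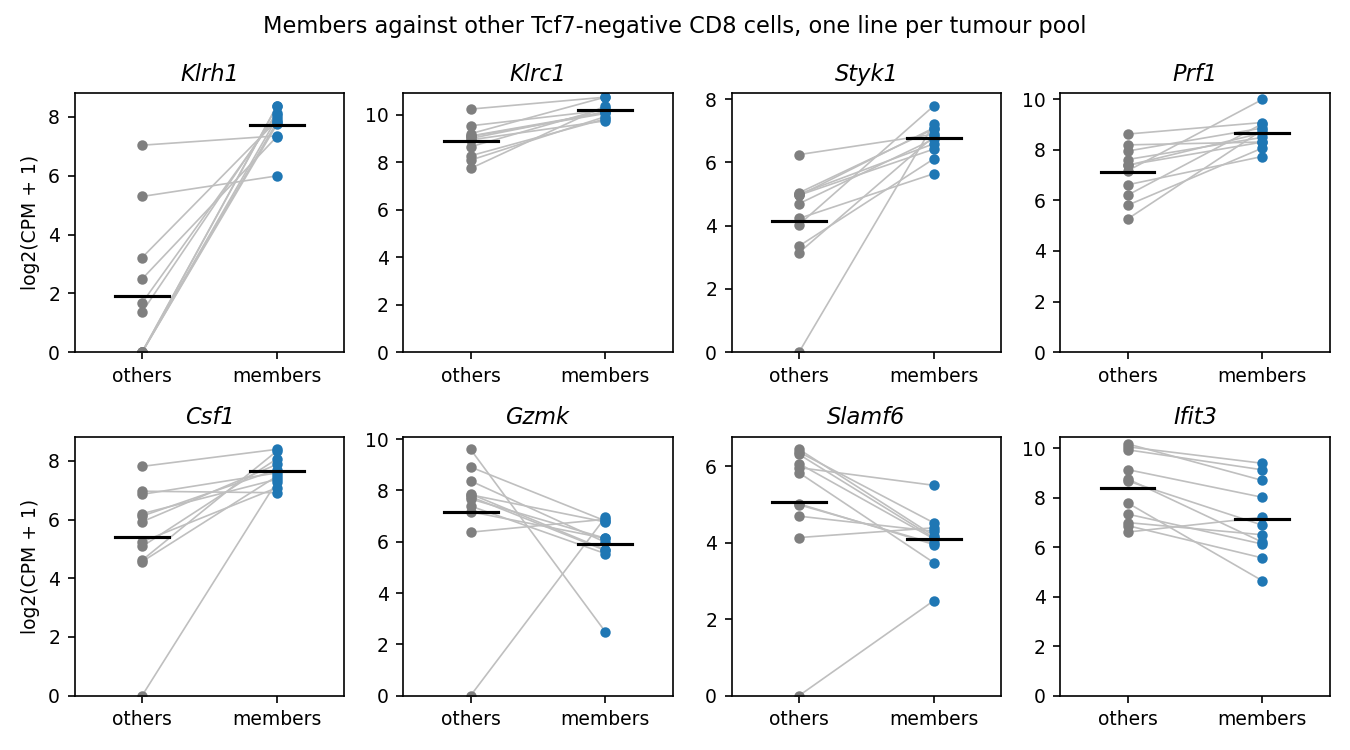
Levels of 8 genes in members and in the other Tcf7-negative CD8 cells, as log2(CPM + 1) of counts summed per tumour pool. Each grey line joins the values of 1 of 11 pools and black bars are means. Klrh1, Klrc1, Styk1 and Prf1 rose in 11 of 11 pools, while Gzmk, Slamf6 and Ifit3 fell in most.

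The interferon-stimulated genes were the most uniform group. Of 25 listed, 19 were tested and 19 were lower in members, with a median of −1.24 (−1.93 to −1.05 over 21 settings, in each of which 14 to 22 members of the list were lower and 0 higher). Ifit3, an RNA-binding antiviral gene, stood at 24.1 to 674 CPM (median 118) in members and 97 to 1162 CPM (median 410.4) in the others (−1.39 ± 0.22, adjusted p = 0.000513, edgeR). Isg15, the ubiquitin-like modifier, stood at 38.8 to 867 CPM (median 179) against 80.8 to 2691 CPM (median 483) (−1.34 ± 0.21), and Irf7 (−1.02 ± 0.19) and Bst2, the viral tether tetherin (−0.79 ± 0.12), were lower too. Further genes of this kind among the 15 largest decreases were Ddx60 (−1.88 ± 0.24), Ifit3b (−1.75 ± 0.27), Ifit1 (−1.68 ± 0.31), Cmpk2 (−1.60 ± 0.27) and Mx2 (−1.57 ± 0.30).

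The summed level of the list was lower in members in each of the 11 pools, and the gap was smallest in NT day 3 replicate 1, at 1632 against 1665 CPM. The widest gap as a ratio was in RT day 1 replicate 1, at 1482 against 4995 CPM. The highest levels of members were 7029 against 10592 CPM in RT+FTY720 replicate 1 and 6737 against 14915 CPM in RT day 3 replicate 2. In RT+FTY720 replicate 2 the levels were 4869 against 12311 CPM. In single cells the median was 9.53 list UMIs per 10000 in members and 24.2 in the others. Within unirradiated tumours these were 7.97 and 14.9, and within irradiated ones 21.7 and 50.2. Members held more UMIs per cell than the others. With cells thinned and then chosen again by the rule, 15 of 18 genes of the list were lower, with a median of −1.05. Cdkn1a, the p53 target that halts the cell cycle, was also lower in members (4.39 to 101 CPM (median 27.1) against 0 to 349 CPM (median 54.6), adjusted p = 0.0153, edgeR), but lost its call in 6 of 9 other settings, among them thinned cells, pools by hashtag and the cells that lacked both receptors.

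**Figure D2:**
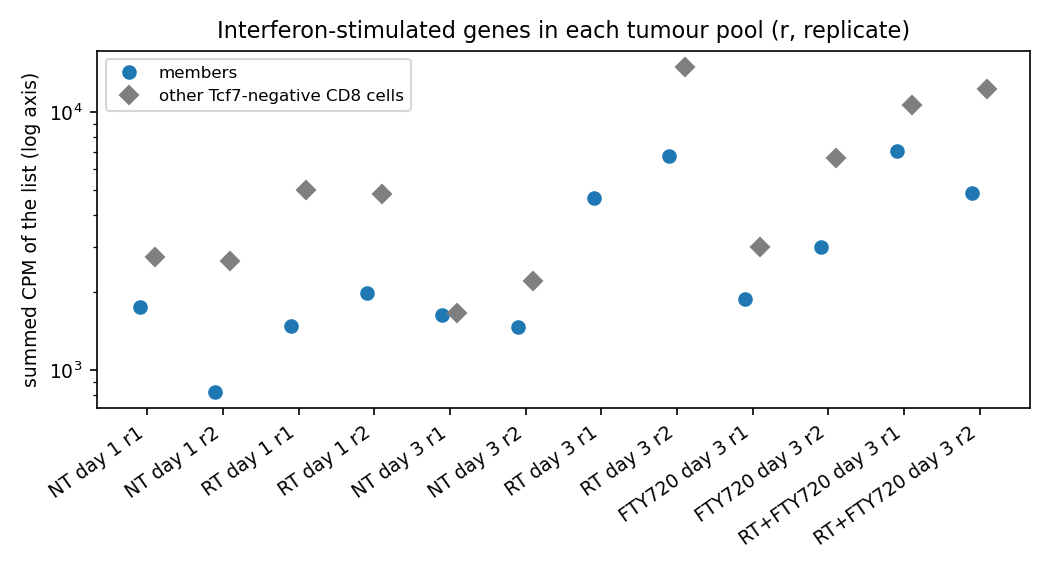
Summed CPM of the interferon-stimulated genes, on a log axis, in members (circles) and in the other Tcf7-negative CD8 cells (diamonds) of each tumour pool, where RT day 3 replicate 1 had under 5 of the latter. Members lie below the others in 11 of 11 pools, and both are highest in RT and RT+FTY720 at day 3.

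Members were then set beside the 193 CD8 cells that carried both receptors and Tcf7 (9 pools with at least 5 cells of both, median 24742 UMIs). This comparison was added after the number of such cells was seen. Members had Ccr7 and S1pr1, receptors of lymph node homing and egress, at low levels and several genes of checkpoints and killing at high levels. Of 7274 genes, 341 were higher and 366 lower in members (9.72%, 4.69% higher and 5.03% lower, edgeR adjusted p below 0.05), and 127 and 150 of 4571 with thinned cells. The count fell from 707 to 435 without NT day 3 replicate 2. Tcf7 chose these groups, and genes that vary with Tcf7 from cell to cell were bound to differ. Of the CD4 and Treg markers 4 of 5 tested were higher in members (Ctla4, Il2ra, Ccr8 and Ikzf4; Cd4 and Foxp3 are at 0 by the rule; list median 0.98; summed 653 to 1437 against 199 to 877 CPM), and so was 1 of 2 myeloid markers, Cst3 (summed 129 to 313 against 79.5 to 217 CPM); their part in the result was not tested.

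Of 10 memory and stem-like genes, 8 were lower (median −1.33). S1pr1, the egress receptor, stood at 5.5 to 25 CPM (median 10.7) in members and 34.4 to 121 CPM (median 73) in the Tcf7-positive cells (−2.51 ± 0.20, adjusted p = 2.82e-06, edgeR), and Lef1 (−2.82 ± 0.27), Ccr7 (−1.86 ± 0.34) and Slamf6 (−1.66 ± 0.29) were lower as well. Eomes was lower too (−2.19 ± 0.25). Ccr7 did not pass with thinned cells. Of 20 interferon-stimulated genes tested, 10 were lower in members and 0 higher (list median −0.80), and 4 to 15 were lower over 17 settings. In single cells the median was 9.53 list UMIs per 10000 in members and 14.0 in the Tcf7-positive cells.

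Of 15 checkpoint genes, 9 were higher and 2 lower (median 0.75). Havcr2 stood at 177 to 451 CPM (median 281) against 0 to 344 CPM (median 64.2) (1.81 ± 0.32), and Lag3 (1.62 ± 0.21), Entpd1, an ectonucleotidase (1.39 ± 0.25), Ctla4 (1.28 ± 0.20) and Pdcd1 (1.26 ± 0.20) were higher too. In members 383 of 516 cells had UMIs of both Pdcd1 and Havcr2. Prf1 stood at 302.4 to 1211 CPM (median 452) against 31 to 200.1 CPM (median 91.8), without overlap (2.31 ± 0.30, adjusted p = 0.000203, edgeR), 1 of 4 cytotoxic granule genes of 11 that were higher. Gzmb, granzyme B, was higher by 1.34 ± 0.38 and did not pass in 5 of 9 fits with a pool left out. Of 14 cytokine genes 6 were higher, among them Ifng (1.67 ± 0.28), Ccl3 (2.04 ± 0.49), Ccl4 (1.68 ± 0.50) and Csf1 (1.89 ± 0.38). With thinned cells Ifng, Ccl3 and Ccl4 did not pass, and Ccl4 did not in 6 of 9 fits with a pool left out. Of the lectins, Klrh1 (2.10 ± 0.50) and Klrc1 (0.81 ± 0.11) were higher, Klrc1 not with thinned cells and Klrh1 not with at least 10 cells per sum, and Cd244a did not pass (0.73 ± 0.24, adjusted p = 0.0687, edgeR).

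The TCR beta V genes of members differed in part from those of other CD8 cells. Clones were counted once per pool by their TCR beta (TRB) sequence, which gave 321 member clones, of which 85 held 2 or more members and together 52.7% of the members with a TRB. V gene shares of member clones were compared with those of all other CD8 cells of the same pool (11 pools with at least 10 clones in both), a test added after V gene use was seen. Of 13 V genes, 4 differed (30.8%; exact sign-flip permutation test over pools, two-sided, adjusted over 13). TRBV26 made up 16.1% ± 7.64 of member clones and 3.55% ± 4.13 of the others (SD, n = 11 pools, higher in 10 of 11, exact permutation adjusted p = 0.0127). TRBV5 made up 17.7% ± 12.2 against 4.63% ± 3.67 (higher in 10 of 11, exact permutation adjusted p = 0.0127). TRBV13-3 was lower by 5.48 points, at 2.50% against 7.98%, and TRBV29 by 4.30 points, at 3.37% against 7.67% (exact permutation adjusted p = 0.0127 each). With pools by hashtag TRBV26 was higher by 13.97 and TRBV5 by 9.73 points (exact permutation adjusted p = 0.0381 each), while TRBV13-3 and TRBV29 no longer passed (0.169 and 0.305).

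By pool, TRBV26 was found in 4 of 21 member clones in NT day 1 replicate 1, 8 of 56 in NT day 1 replicate 2, 6 of 50 and 10 of 69 in the NT day 3 replicates and 3 of 10 in RT+FTY720 replicate 1. In RT day 1 replicate 2 it was nearly level, with 1 of 29 member clones and 5 of 158 others, and RT day 3 replicate 1 went the other way, with 1 of 10 member clones and 2 of 15 others. TRBV5 reached 5 of 10 member clones in RT day 3 replicate 1, and in RT day 1 replicate 2 it was 1 of 29 member clones against 11 of 158 others. In the summed counts, against the other Tcf7-negative cells, Trbv26 stood at 54.4 to 334 CPM (median 187) against 0 to 207 CPM (median 6.59). Trbv5 (0.71 ± 0.39, adjusted p = 0.341, edgeR) and Trbv13-3 (−0.12 ± 0.65, adjusted p = 0.973) did not pass there.

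**Figure D3:**
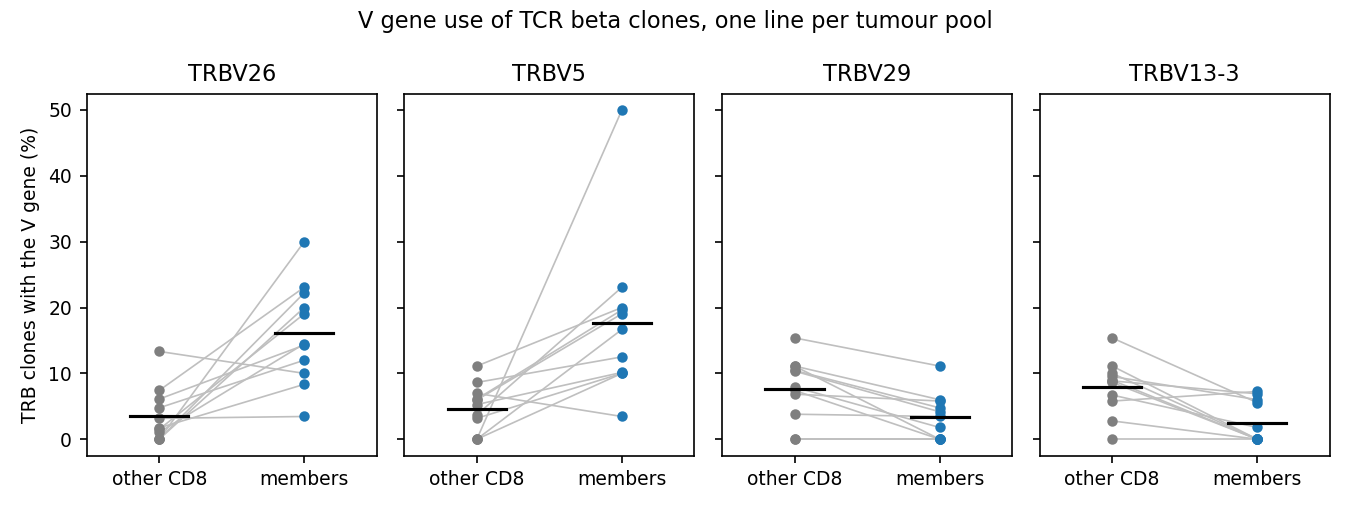
Percent of TRB clones with each of 4 V genes, in other CD8 cells and in members. Each grey line is 1 of 11 tumour pools and black bars are means. TRBV26 and TRBV5 are higher in members in 10 of 11 pools each, and TRBV29 in 0 of 11.

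The TRBV26 sequences shared a feature at 1 position. Of 40 distinct TRBV26 sequences of members, 33 had an arginine codon as codon 6 of the CDR3, the loop that touches the antigen (82.5%, 95% Wilson interval 68.1 to 91.3), counted from the conserved cysteine codon. The number was 6 of 9 in the other Tcf7-negative cells, 5 of 7 in the Tcf7-positive cells with both receptors, 4 of 11 in other Tcf7-positive CD8 cells and 7 of 44 (15.9%) in cells outside the CD8 rule. In members with other V genes it was 17 of 245 (6.94%). This is a description, since the codon was chosen after the sequences were seen. Shown here are TRBV26 CDR3 sequences of members from different pools and J genes, with codon 6 in capitals, the first 7 with an arginine codon and the last 2 without.
TRBV26 with TRBJ1-1, NT day 1 replicate 1, 4 members: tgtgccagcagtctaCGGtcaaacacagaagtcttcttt
TRBV26 with TRBJ1-1, NT day 1 replicates 1 and 2, 2 members: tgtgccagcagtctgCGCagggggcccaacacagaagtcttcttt
TRBV26 with TRBJ1-5, NT day 3 replicate 2, 3 members: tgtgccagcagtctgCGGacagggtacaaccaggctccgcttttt
TRBV26 with TRBJ2-4, NT day 1 replicate 2, 2 members: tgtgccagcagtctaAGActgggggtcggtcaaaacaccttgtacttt
TRBV26 with TRBJ2-3, NT day 3 replicate 2, 2 members: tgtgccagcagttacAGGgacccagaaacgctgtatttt
TRBV26 with TRBJ2-1, NT day 1 replicate 2, 2 members: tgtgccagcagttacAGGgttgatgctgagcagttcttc
TRBV26 with TRBJ1-6, NT day 3 replicates 1 and 2, 2 members: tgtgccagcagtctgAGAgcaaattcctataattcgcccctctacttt
TRBV26 with TRBJ2-7, NT day 3 replicates 1 and 2, 5 members: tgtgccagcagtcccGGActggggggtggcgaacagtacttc
TRBV26 with TRBJ1-5, NT day 3 replicate 1, 2 members: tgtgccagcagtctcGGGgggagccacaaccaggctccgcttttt

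Some protein CDR3 loops were reached by different nucleotide sequences. Of 271 protein CDR3 with their V gene, 11 were encoded by 2 or more nucleotide sequences among members, 4 of them with TRBV26 and 2 with TRBV5. In the first set below 3 TRBV26 sequences encode 1 protein loop, 2 of them found in the same pools. In the second, the same holds for 3 TRBV5 sequences from RT day 1, NT day 3 and NT day 1. Capitals mark the bases that differ within a set.
TRBV26 with TRBJ1-6, RT+FTY720 day 3 replicate 2: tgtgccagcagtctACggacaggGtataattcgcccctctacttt
TRBV26 with TRBJ1-6, FTY720 replicate 2 and RT+FTY720 replicate 1: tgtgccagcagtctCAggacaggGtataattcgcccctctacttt
TRBV26 with TRBJ1-6, FTY720 replicate 2 and RT+FTY720 replicate 1: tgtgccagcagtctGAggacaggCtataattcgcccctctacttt
TRBV5 with TRBJ2-3, RT day 1 replicate 2: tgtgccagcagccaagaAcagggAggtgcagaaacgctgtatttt
TRBV5 with TRBJ2-3, NT day 3 replicate 1: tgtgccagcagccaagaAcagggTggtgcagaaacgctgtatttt
TRBV5 with TRBJ2-3, NT day 1 replicate 2: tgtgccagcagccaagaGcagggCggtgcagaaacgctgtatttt
In these pools the last of the TRBV26 sequences came with the same alpha chain both times, of TRAV6-5, while the one before it came with TRAV3N-3 in FTY720 replicate 2 and TRAV9-2 in RT+FTY720 replicate 1.

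Clonal expansion was measured as the share of pairs of cells in a pool that carry the same TRB. It was 2.62% ± 0.94 of member pairs and 1.47% ± 1.21 of pairs of other Tcf7-negative cells (SD, n = 9 pools with at least 5 such cells, higher in 6 of 9). The difference of 1.15 points did not pass (two-sided exact permutation over pools by sign flips, p = 0.0547). It passed with alpha and beta chains together (1.08, exact permutation p = 0.0391), and with pools by hashtag it was 0.735 (exact permutation p = 0.316). The largest clone used TRBV10 and TRBJ1-1, with 12 red members in NT day 3 replicate 1 and 6 green ones in NT day 3 replicate 2, and was seen in 0 other CD8 cells of those pools. The next largest clone of a pool used TRBV20 and TRBJ2-4 in NT day 1 replicate 2, with 8 members, 7 other Tcf7-negative cells and 3 Tcf7-positive cells with both receptors. A TRB of a member of the same pool was found in 61 of 230 other Tcf7-negative cells (26.5%), in 47 of 186 Tcf7-positive cells with both receptors (25.3%), in 26 of 553 other Tcf7-positive CD8 cells (4.70%) and in 12 of 1046 cells outside the CD8 rule (1.15%).
TRBV10 with TRBJ1-1, the largest clone: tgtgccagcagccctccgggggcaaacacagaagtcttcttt
TRBV20 with TRBJ2-4, the next largest clone of a pool: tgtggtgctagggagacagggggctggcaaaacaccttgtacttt

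Members were 15.7% to 60.0% of the CD8 cells of a pool, and no contrast of conditions passed its test. The contrasts of day and of FTY720 could not pass, since their smallest possible exact permutation p is 0.0556. In NT day 1 they were 25.2% (30 of 119) and 31.4% (107 of 341) of CD8 cells, in RT day 1 31.6% (36 of 114) and 15.7% (38 of 242), in NT day 3 51.8% (86 of 166) and 35.4% (122 of 345), in RT day 3 42.9% (12 of 28) and 34.7% (17 of 49), in FTY720 28.0% (7 of 25) and 32.8% (20 of 61), and in RT+FTY720 60.0% (18 of 30) and 50% (23 of 46). Without FTY720 the 4 day 1 pools (25.97% ± 7.45) lay below the 4 day 3 pools (41.2% ± 7.99, SD) with no overlap. This difference of 15.2 points had an exact permutation p of 0.0556, two-sided and the smallest this design can give. For NT, whose days shared wells, it was 15.3 points (n = 2 and 2, exact permutation p = 0.333, the smallest possible). Thinned to 10000 UMIs the shares were 23.3% ± 8.0 and 39.7% ± 7.77.

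Irradiated and unirradiated pools differed in the share by 5.05 points (39.1% ± 15.4 in irradiated and 34.1% ± 9.39 in unirradiated pools, n = 6 each, exact permutation p = 0.426), and by 9.98 points in the strata whose conditions shared wells (exact permutation p = 0.222, n = 8). The strata went different ways, with RT minus NT at −4.65 points at day 1 and −4.81 at day 3, and RT+FTY720 minus FTY720 at 24.6 points, and as a share of Tcf7-negative CD8 cells the difference was −0.942 points (exact permutation p = 0.861). With and without FTY720 the share differed by 1.52 points (exact permutation p = 0.944, n = 8), a mean of −13.2 points in unirradiated and 16.2 points in irradiated tumours; whether these differ from each other was not tested. Members were 37.5% ± 18.3 of red and 37.6% ± 13.9 of green CD8 cells (12 pools, p = 0.998 by exact permutation), and with the colours of the labels the red minus green difference was −7.11 points (exact permutation p = 0.237). In shares, fewer members and more of the remaining CD8 cells cannot be told apart.

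**Figure D4:**
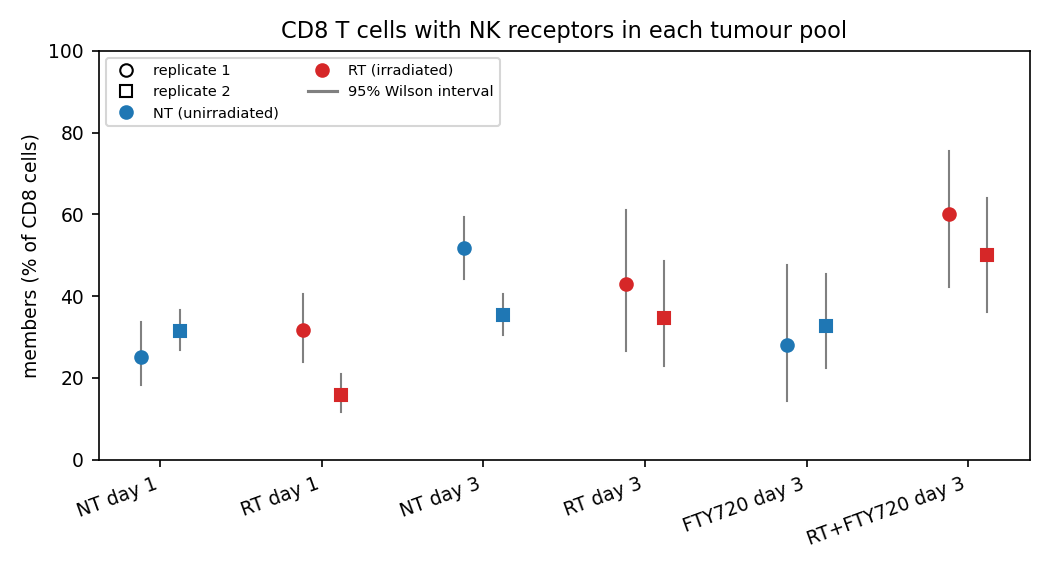
Members as a percent of CD8 cells in each of 12 tumour pools, with 95% Wilson intervals that cover counting error alone. The 4 day 1 pools lie between 15.7% and 31.6%, and the 4 day 3 pools without FTY720 between 34.7% and 51.8%.

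Members that were red by the hashtag names of the matrices were compared with green members of the same pools (11 pools with at least 5 cells of both colours). Red stands for cells that had been in the draining node only if those names hold in replicate 2, which was not tested. Red members carried more of several cytokine and chemokine genes and of some genes induced through the TCR, and less of Klrh1, Cd244a and the survival gene Bcl2. Of 5537 genes, 112 were higher (2.02%) and 94 lower (1.7%) in red, 3.72% in all (edgeR quasi-likelihood, adjusted p below 0.05). The count of 206 was 127 with pools by hashtag, of which 115 were among the 206. Leaving out replicate 2 of NT day 1 gave 95, of RT day 1 gave 104 and of NT day 3 gave 134, and leaving out replicate 1 of NT day 1 gave 128. With the colours of the sample labels it was 0, with 137 genes at an unadjusted p below 0.05.

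Of 14 cytokine and chemokine genes 6 were higher in red members and 0 lower, with a median of 1.35 against −0.0038 over all genes. Ccl3, a chemokine for monocytes and T cells, stood at 434 to 11521 CPM (median 2884) in red and 0 to 2829 CPM (median 265) in green members and was higher in 11 of 11 pools (3.16 ± 0.66, adjusted p = 0.0112, edgeR). The gap was widest in RT+FTY720 replicate 2, at 4093 against 0 CPM, and near none in RT+FTY720 replicate 1, at 2884 against 2829 CPM. Ifng, the type 2 interferon gene, stood at 1006 to 12905 CPM (median 2758) against 359.8 to 1806 CPM (median 726) and was higher in 11 of 11 pools (2.00 ± 0.34), a call lost with at least 10 cells per sum. The other 4 were Ccl4 (2.30 ± 0.43), the TNF family gene Tnfsf14 (2.10 ± 0.35), Tnf (1.40 ± 0.29) and Ccl5 (1.31 ± 0.24). The highest red values of Ccl3 and Ifng were those of RT day 1 replicate 2, at 11521 and 12905 CPM.

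Of 16 genes of TCR signalling and early activation 4 were higher and 0 lower (median 0.34): the nuclear receptors Nr4a1 (1.42 ± 0.37) and Nr4a3 (1.12 ± 0.21), the NF-kappaB subunit Rel (1.11 ± 0.26) and its inhibitor Nfkbia (1.15 ± 0.16). Nr4a1 stood at 83.4 to 658 CPM (median 239) against 29.2 to 238 CPM (median 85.1) and lost its call in 7 of 11 fits that left out a pool, and Rel lost its call in 3. The others among the 10 largest increases were the stress gene Gadd45b (2.16 ± 0.36), Sema7a (1.91 ± 0.28), the histone demethylase gene Kdm6b (1.70 ± 0.26), Sgms1 (1.64 ± 0.30), Crtam (1.61 ± 0.37) and Tagap (1.60 ± 0.24). Of the 15 dissociation and heat shock genes 13 were tested, 1 was higher, and the list's median was 0.29; their part in these differences was not tested.

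Some NK receptor genes differed by colour, while most of those tested did not pass. Of 11 NK adaptors and immunoglobulin-type receptors tested, 2 were higher in red and 1 was lower. Klrh1 was the lectin gene that passed, 1 of 5 tested, and stood at 0 to 189.7 CPM (median 17.6) in red and 94.4 to 814 CPM (median 383) in green members, lower in red in 11 of 11 pools (−2.85 ± 0.50, adjusted p = 0.005, edgeR). By cells, 24 of 275 red members (8.73%) and 80 of 241 green members (33.2%) had a Klrh1 UMI. With the colours of the labels these were 59 of 260 red (22.7%) and 45 of 256 green members (17.6%). The call was lost with pools by hashtag (−2.47, adjusted p = 0.0727, edgeR). Cd244a stood at 0 to 74.7 CPM (median 10.9) against 0 to 128 CPM (median 63) (−2.13 ± 0.53) and did not pass without FTY720 replicate 2 or with DESeq2. Cd160, a receptor for HVEM shared with NK cells, was higher in red, at 36.6 to 390.3 CPM (median 204) against 8.76 to 179.7 CPM (median 59.5) (1.51 ± 0.30), as was Crtam, an adhesion receptor of activated NK and CD8 cells, which did not pass with pools by hashtag.

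Bcl2, which blocks apoptosis, stood at 111 to 521 CPM (median 229.9) in red and 417 to 861 CPM (median 634) in green members and was lower in 11 of 11 pools (−1.52 ± 0.14, adjusted p = 2.48e-05, edgeR). Zfp683, the residency factor, was lower (−1.51 ± 0.30), and Cd38 (−1.42 ± 0.26) and Ikzf2, which encodes Helios (−1.11 ± 0.29), were lower as well, Ikzf2 not with pools by hashtag and not in 7 of 11 fits with a pool left out. The other large decreases were Gm42047 (−1.78 ± 0.36) and Airn (−1.58 ± 0.32), neither with at least 10 cells per sum, Cables1 (−1.60 ± 0.21), Zbtb20 (at 11.2 to 88.2 CPM (median 57.5) against 65.5 to 307 CPM (median 173)), Myo1e (−1.50 ± 0.29, not with pools by hashtag), the kinase Txk (−1.47 ± 0.23) and Rundc3b (−1.46 ± 0.26). Of 16 adhesion and trafficking genes 4 were higher in red and 0 lower (median 0.27), among them Ccr2 (1.83 ± 0.45), Itgb7 (1.53 ± 0.32) and Cx3cr1 (0.87 ± 0.17), of which Ccr2 did not pass in 6 of 11 fits with a pool left out. Of the checkpoint genes Havcr2 (1.04 ± 0.26) and Lag3 (0.56 ± 0.13) were higher, neither with pools by hashtag. Of 18 interferon-stimulated genes 0 passed and the median was −0.16 (edgeR; 2 at an unadjusted p below 0.05).

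**Figure D5:**
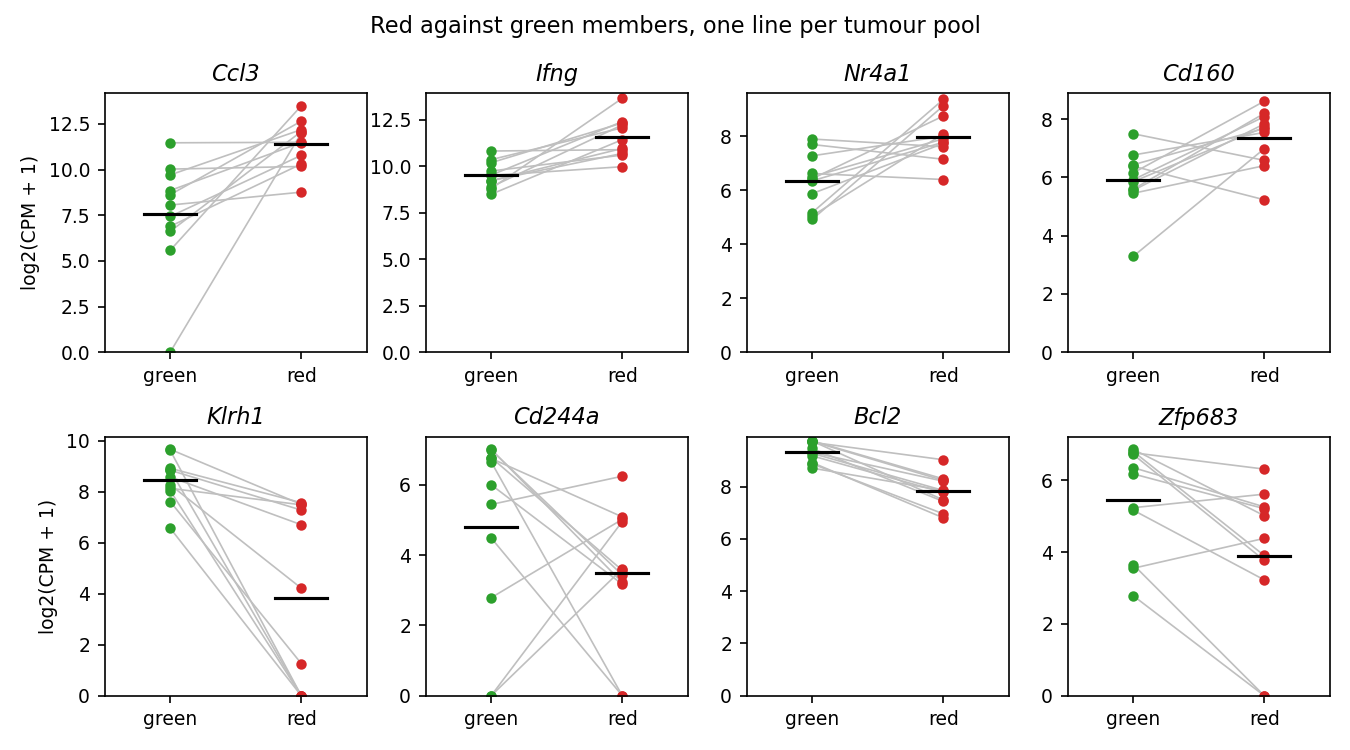
Levels of 8 genes in green and red members, as log2(CPM + 1) of counts summed per pool and colour. Each grey line is 1 of 11 tumour pools and black bars are means. Ccl3 and Ifng rose in red in 11 of 11 pools, and Klrh1 and Bcl2 fell in 11 of 11.

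Radiation was tested in members over 3 strata (day 1, day 3 and day 3 with FTY720, 6 irradiated and 6 unirradiated pools). Members of irradiated tumours carried more of Cdkn1a and of several interferon-stimulated genes, and less of Nrgn. Of 7566 genes, 21 were higher and 1 lower (0.291%, 0.278% higher and 0.0132% lower, edgeR adjusted p below 0.05), and 1014 were at an unadjusted p below 0.05. The count depended on the pools. It ran from 1 without NT day 3 replicate 2 to 167 without NT day 1 replicate 1, was 163 (133 higher, 30 lower) with pools by hashtag and 268 (184 higher, 84 lower) with DESeq2, and was 1 in the strata whose conditions shared wells and 2 without the FTY720 pools.

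Cdkn1a stood at 24.2, 26.3, 23.2, 23.7, 8.98 and 4.28 CPM in the unirradiated pools (NT day 1, NT day 3 and FTY720, replicates 1 and 2 of each) and at 98.7, 49.5, 91.9, 49.9, 87.7 and 57.5 CPM in the irradiated ones (RT day 1, RT day 3 and RT+FTY720). The groups did not overlap, and the log2 change was 1.81 ± 0.27 (adjusted p = 0.0189, edgeR). Within shared wells it was 1.97 (adjusted p = 0.225, edgeR), and the call was lost when any of 3 pools was left out (both of NT day 3, and replicate 1 of RT day 3) and without the FTY720 pools. It was 1 of 15 p53 targets tested that passed (list median 0.38). Nrgn stood at 193, 265, 338, 392, 566 and 244 CPM in the same unirradiated pools and at 98.7, 69.3, 63, 102, 59.3 and 94.4 CPM in the irradiated ones, with no overlap (−1.94 ± 0.23, adjusted p = 0.00293, edgeR). It passed in 12 of 12 fits that left out a pool, and within shared wells its change was −1.84 (adjusted p = 0.145, edgeR). Mxd1, a repressor that opposes Myc (1.45 ± 0.22), Serpinb9, which inhibits granzyme B (1.10 ± 0.21), and the inhibitory receptor Lilrb4a (1.06 ± 0.15) were higher without overlap. Mxd1 did not pass in 5 and Serpinb9 in 9 of 12 fits with a pool left out, and Lilrb4a did not without NT day 3 replicate 2 or with pools by hashtag.

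All 19 interferon-stimulated genes tested had a positive estimate, with a median of 1.46 (1.01 to 1.70 over 23 settings), but 2 passed, Bst2 and Zbp1, and 18 were at an unadjusted p below 0.05. With DESeq2 15 passed, with pools by hashtag 16, and within shared wells 0. Bst2 stood at 173, 132, 209.5, 174, 157 and 381 CPM in the unirradiated and 198, 296, 864, 989, 1140.2 and 794 CPM in the irradiated pools (1.60 ± 0.25, adjusted p = 0.0208, edgeR), and the values over 790 CPM were those of the day 3 pools. It did not pass without either NT day 3 pool, RT day 3 replicate 1 or RT+FTY720 replicate 1, nor without the FTY720 pools. The summed level of the list lay at 1754 and 821 CPM in NT day 1 and at 1482 and 1995 CPM in RT day 1, so those overlapped. At day 3 it was 1632 and 1467 CPM in NT, 4648 and 6737 CPM in RT, 1879 and 2997 CPM in FTY720 and 7029 and 4869 CPM in RT+FTY720. Isg15 (1.70 ± 0.38, adjusted p = 0.069) and Ifit3 (1.69 ± 0.39, 0.0721) did not pass in edgeR, but did with pools by hashtag (1.90, adjusted p = 0.00319, and 1.81, adjusted p = 0.00705, edgeR). The remaining genes of the 10 largest increases were A330040F15Rik (2.38 ± 0.44), the interferon-induced Ifi27l2a (1.56 ± 0.30) and Ifitm3 (1.46 ± 0.29), Dgat1, a triglyceride synthesis enzyme (1.43 ± 0.28), Gm15283 (1.42 ± 0.24), Zbp1 (1.35 ± 0.26) and Slco3a1 (1.29 ± 0.22), and each of these 7 did not pass in 6 or more of 12 fits with a pool left out. The receptors Klrc1 (0.31 ± 0.14) and Klrk1 (0.27 ± 0.13) and Prf1 (0.61 ± 0.33) did not pass. The summed NK markers were 3051 to 4141 CPM in irradiated and 2849 to 4022 CPM in unirradiated members, and the CD4 and Treg markers 760.1 to 1437 and 653 to 766 CPM; their part in the result was not tested.

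Between day 1 and day 3 (4 pools each, without FTY720) 1 of 8459 genes passed, the cytokine gene Il13 (0.0118%, edgeR), with 801 at an unadjusted p below 0.05 and 17 passing with DESeq2, which gave Il13 no adjusted p. Il13 stood at 59.1 and 29.9 CPM in NT day 1, at 76.7 and 107 CPM in RT day 1, at 0 in both NT day 3 pools and in RT day 3 replicate 1, and at 8.3 CPM in RT day 3 replicate 2. This was 357 UMIs in 6650496 at day 1 against 3 in 6027777 at day 3, a ratio of 108 (95% interval 36.6 to 525 for counting error). That interval takes UMIs as independent, which UMIs of the same cell are not, so it is too narrow. Few cells carried Il13. Of 516 members 10 had an Il13 UMI, all 10 red (2 red and 8 green with the colours of the labels), with up to 99 of the 360 UMIs in a single cell, so that the change in the summed counts describes those cells. The call was lost without NT day 3 replicate 2, without RT day 3 replicate 1, and in NT alone, whose days shared wells (adjusted p = 0.0572, edgeR), and with thinned cells Il13 fell under the filter on low counts. Il2 was of the same kind, in 13 members with 353 of 708 UMIs in 1 cell of RT day 1 replicate 1, and did not pass (31, 13.9, 361 and 236 CPM against 5.54, 0, 2.61 and 0 CPM, adjusted p = 0.14, edgeR).

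Ifng stood at 2387, 3027, 3289 and 8397 CPM at day 1 and at 1759.9, 779, 1540.2 and 1302 CPM at day 3 (NT replicates 1 and 2, then RT). The difference did not pass (−1.56 ± 0.34, adjusted p = 0.358, edgeR), and the highest value was that of RT day 1 replicate 2. Csf2 did not pass either (68.1 to 351 CPM (median 165) at day 1 and 8.3 to 56.1 CPM (median 32.1) at day 3, adjusted p = 0.4, edgeR). Of 16 cytokine genes 10 were at an unadjusted p below 0.05 and the median was −1.03, and of 14 mitosis genes these were 9 and −1.08, with the proliferation genes Mki67 at −0.71 ± 0.38 and Top2a at −0.71 ± 0.26. The 19 interferon-stimulated genes had a median of 0.99, with 12 at that level, as were 801 of all 8459 genes. Their summed level overlapped between days in NT (1754 and 821 against 1632 and 1467 CPM). In RT, whose days did not share wells, it was 1482 and 1995 against 4648 and 6737 CPM. Summed cytokine genes also overlapped in NT (11140 and 21090 against 12112 and 8589 CPM). Summed mitosis genes overlapped in RT (432 and 768 against 327 and 903 CPM). None of the genes of these lists passed after adjustment in edgeR.

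The radiation effect in members was set against that in the other Tcf7-negative cells as an interaction (11 pools). Of 6403 genes 1 passed (0.0156%, edgeR), the V gene Trbv12-2 (3.32 ± 0.46, adjusted p = 0.00771), with 279 at an unadjusted p below 0.05. Its level followed single pools, at 5.16 to 297 CPM in members, and it did not pass when replicate 1 of NT day 1 or of RT day 1 was left out, nor with pools by hashtag. DESeq2 passed 4 genes.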

How the data were processed

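Single-cell RNA and TCR libraries (GEM-X 5′ v3) were made from T cells of 12 tumour pools, hashed by pool and Kaede colour into 24 samples over 4 wells. The authors deposited raw UMI counts per gene and barcode and assembled TCR contigs, made with Cell Ranger 8.0.1 on mm39, per the submitters' processing notes. Of the columns of per-sample values, 0 were left unused.

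Barcodes under 500 genes or over 10% mitochondrial UMIs were dropped, which left 2740 of 2816. A hashtag was assigned where its UMIs were at least 20 and at least 3 times the next, which all kept cells met; no doublet caller was run, and cells with 2 or more TRB contigs were left out as an alternative. The members and the gene lists were chosen with earlier results of these data known. Counts were summed per pool and kind of cell where at least 5 cells entered and tested with edgeR 4.0.16 (filterByExpr, TMM, quasi-likelihood, R 4.3.3) with the pool, the stratum of time and FTY720, or radiation as a term. DESeq2 1.42.0 was an alternative. Calls are at an adjusted p of 0.05 (Benjamini-Hochberg over all genes tested). The fits were also run on simulated counts with planted changes, a single fixed dispersion and no difference between pools beyond their total counts. This does not show how the fits behave on the real pools. Named genes were the 15 largest called changes in each direction for comparisons of members with other cells and the 10 largest within members, with at least 20 CPM in 1 group and the same direction in at least 3 in 4 pairs of pools, beside genes of the lists; some genes that the rule names are not reported here. Changes are log2 fold changes ± SE.

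Shares and V gene use were tested by exact permutation over pools (Python 3.11.15, scipy 1.17.1). Thinning drew 10000 UMIs per cell and left out 16 members and 57 other Tcf7-negative cells. Fits and shares with thinned cells applied the rule again to the thinned counts. This gave 465 members, 436 of them members before thinning. Thinned percentages of cells with a UMI of a gene kept the original groups. Intervals cover counting error only. Replicate numbers did not pair the pools: over 15 pairs of conditions the correlation of same-numbered deviations was −0.0822 to 0.0993. TCR sequences are those of the deposited contigs. No genome was used here, so no coordinates are given.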

Additional observations from a re-analysis of the deposited data

Results flagged for a closer look

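In 93 groups of 4 to 10 pools, 14 values stood apart from the rest of their group by Dixon's criterion. Its nominal rate of about 1 in 20 groups cannot be used as a yardstick, since the groups share pools and the criterion assumes normal values. RT day 1 replicate 2 held 5 of them, among members of the 9 pools compared with Tcf7-positive cells or of the day 1 pools: Ccl3 at 7374 CPM (next pool 3416), Ccl4 at 14005 CPM (6785), Ifng at 8379 CPM (3288; 8397 CPM in the day comparison, against 3289) and Eomes at 50.9 CPM (27.8). RT day 3 replicate 1, with 12 members, had Gzmb at 6098 CPM (2424) and Ccr7 at 123 CPM (45.6). RT day 3 replicate 2 had Klrc1 at 1649 CPM in members (1200.0) and Il13 at 8.30 CPM where the other day 3 pools were at 0, and in its Tcf7-positive cells Gzmb stood at 3569 CPM (1414) and Csf1 at 181 CPM (85.3).

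Among the unirradiated pools, FTY720 replicate 2 was high in Bst2, at 381 CPM (next 209.5), and FTY720 replicate 1, with 7 members, in Ifitm3 at 247 CPM (144) and Lilrb4a at 94.3 CPM (58.4). The radiation effect on Trbv12-2 differed between members and other Tcf7-negative cells by 3.32 ± 0.46 (log2, SE, edgeR interaction term).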

How the results depend on the processing

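Pools were few and held 7 to 122 members, which limits the within-member comparisons most. Shares of members: the red minus green difference of −0.0137 points was 3.04 with thinned cells, 2.11 with at least 2 UMIs of Klre1 and Klrd1, 8.58 as a share of Tcf7-negative CD8 cells and 0.709 without cells of 2 or more TRB contigs (−3.60 to 3.60 with a pool left out), and in that share of Tcf7-negative cells radiation gave −0.942 and FTY720 −11.2 points (FTY720 −2.59 to 5.63 with a pool left out). TCR sharing was 1.08 points with alpha and beta chains (0.931 to 1.38 with a pool left out). Without the filter on low counts the numbers of called genes were 812 against the other Tcf7-negative cells, 1128 against the Tcf7-positive cells, 609 for colour, 520 for radiation, 380 for day and 83 for the interaction. With thinned cells they were 273, 277, 201, 109, 0 and 3 in that order, and against cells without both receptors 252. With pools by hashtag they were 127 for colour, 163 for radiation, 3 for day and 0 for the interaction. DESeq2 gave 268 for radiation, 17 for day and 4 for the interaction. Radiation gave 13 genes with at least 10 cells per sum, 1 within wells and 2 without the FTY720 pools, and day 4 within wells. With a pool left out the counts ran from 317 to 492, 435 to 743, 95 to 309, 1 to 167, 0 to 44 and 0 to 1, in the order above. With a replicate block radiation gave 5 genes and day 1, and the share of members under radiation had an exact permutation p of 0.5625 with that block; the pools share only a number, so these are no paired results.

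With the colours of the sample labels 0 genes were called between red and green, and these estimates changed sign: Ccl3 −1.75, Ccl4 −1.31, Gadd45b −0.95, Tnfsf14 −0.91, Ifng −0.28, Sema7a −0.62, Kdm6b −0.23, Sgms1 −0.24, Crtam −0.92, Tagap −0.66, Cd160 −0.75, Tnf −0.62, Ccl5 −0.16, Nr4a1 −0.67, Nr4a3 −0.27, Rel −0.56, Nfkbia −0.047, Itgb7 −0.18, Lag3 −0.055, Havcr2 −0.57, Klrh1 0.14, Cables1 0.31, Airn 0.30, Bcl2 0.37, Zfp683 0.27, Zbtb20 0.49, Txk 0.26, Rundc3b 0.20, Cd244a 0.98 and Cd38 0.38. Except where a replaced setting tests other genes or fewer cells, the cause of these changes was not tested.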
